A study of Mus musculus with 7 samples.

Results

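The Musashi, Muscleblind and CELF families are RNA-binding proteins, and the expression of 10 of their genes was measured in embryonic mouse retina with 1 or both copies of *Ptbp1* deleted. The genes, *Msi1*, *Msi2*, *Mbnl1*, *Mbnl2*, *Mbnl3*, *Celf1*, *Celf2*, *Celf3*, *Celf4* and *Celf5*, were taken by gene name from the 48440 genes of the count table. *Celf6*, the remaining CELF gene, was not among them. All 10 passed the filter on low counts, with 956 (*Mbnl3* in KO1) to 115104 reads (*Msi1* in Het1) per library.

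Bulk RNA-seq was performed on whole retina at E16, in 7 libraries made from 36 pooled retinas. The single wildtype (WT) library, from 6 retinas, carried Chx10Cre alone, the 3 Het libraries (Het1 to Het3, from 5, 5 and 6 retinas) were Chx10-Cre;Ptbp1lox/WT, and the 3 KO libraries (KO1 to KO3, from 4, 4 and 6) were Chx10-Cre;Ptbp1lox/lox. All groups therefore carried the Cre transgene, which is driven by the *Chx10* promoter in retinal progenitors, so that cells of other lineages in the tissue keep *Ptbp1* undeleted. Nothing states that the pools came from separate litters, and p-values measure only the spread between these pools. Het was compared with KO, the contrast that shows what loss of the remaining copy adds to loss of 1, and the single WT library entered no test.

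Ptbp1 is a repressor of neuronal exons, and the 3 families studied here act on many of the same kinds of target. Musashi proteins bind short UAG-containing RNA elements through paired RNA recognition motifs. They regulate translation in neural progenitors, and in photoreceptors they promote the inclusion of exons that are used in few other cell types. Muscleblind proteins bind YGCY elements through zinc fingers and promote mature splice patterns, and their sequestration by expanded repeats causes myotonic dystrophy. CELF proteins bind GU-rich RNA, control splicing, translation and mRNA decay, and often oppose Muscleblind proteins on shared exons.

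Close paralogs can share reads, and coding stretches around the longest identical run of a pair are shown for that reason. The 120 bases of coding sequence around that run differed at 15 positions (87.5% identity) between *Msi1* and *Msi2*. Between *Mbnl1* and *Mbnl2* they differed at 18 (85.0%). Whether another window of that length has a higher identity was not examined. Capitals mark the bases that differ, and both sequences of a pair are in the coding direction. They cross exon junctions, and the exon parts lie on GRCm38, in coding exons, at chr5:115435521-115435546, chr5:115438713-115438761 and chr5:115440485-115440529 (plus strand) for *Msi1*, at chr11:88590055-88590080, chr11:88480006-88480054 and chr11:88413946-88413990 (minus strand) for *Msi2*, at chr3:60529770-60529804 and chr3:60595594-60595678 (plus strand) for *Mbnl1*, and at chr14:120325378-120325412 and chr14:120379150-120379234 (plus strand) for *Mbnl2*.
Msi1: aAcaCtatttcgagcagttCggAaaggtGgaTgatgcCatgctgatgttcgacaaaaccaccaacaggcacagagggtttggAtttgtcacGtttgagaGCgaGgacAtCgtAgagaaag
Msi2: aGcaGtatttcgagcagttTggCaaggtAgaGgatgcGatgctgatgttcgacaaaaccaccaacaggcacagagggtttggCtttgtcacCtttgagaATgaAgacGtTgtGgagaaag
Mbnl1: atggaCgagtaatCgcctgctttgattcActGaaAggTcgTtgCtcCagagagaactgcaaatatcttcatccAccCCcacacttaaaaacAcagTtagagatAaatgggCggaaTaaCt
Mbnl2: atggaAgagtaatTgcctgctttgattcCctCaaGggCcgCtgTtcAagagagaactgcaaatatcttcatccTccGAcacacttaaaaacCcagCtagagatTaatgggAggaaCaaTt
The longest run without a difference was 44 bases for *Msi1* and *Msi2*, 26 for *Mbnl1* and *Mbnl2*, 23 for *Celf1* and *Celf2* and 26 for *Celf4* and *Celf5*, and the other pairs shared none of 20 bases. No stretch of 50 bases in any annotated transcript of a member occurred in another member of its family, and at most 0.203% of such stretches (in *Celf4*) occurred on the same strand of any other gene. A read that matched such a stretch would thus have no second place in its own family. Whether counting used strand is not given in the sources used here, so reads from antisense genes cannot be set aside. Antisense exons covered 8.14% of the exon bases of *Celf5* (*Gm16105*), 7.58% of *Celf2* (*Gm26565*), 1.35% of *Celf3* (*Riiad1*) and 0.717% of *Mbnl2* (*Gm26679*), and how many of these genes' reads came from the antisense partner was not tested.

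The targeted gene was examined first. *Ptbp1* was expressed at 381 CPM (read counts relative to the TMM-normalized library size) in WT, at 210, 219 and 234 CPM in Het1 to Het3, and at 27.9, 6.04 and 46.9 CPM in KO1 to KO3. The 3 groups were fully separated, and KO held 12.2% of the Het level (log2 fold change -3.04, edgeR adjusted p = 0.0316).

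Library totals ran from 120593979 to 171117305 counts, and no pair of replicates was a copy. The tissue was labelled as retina, and *Ccnd1*, the cyclin of dividing progenitors, was at 2872 to 3290 CPM in every library. Het1 stood apart. Its 19 tested skeletal muscle genes summed to 378 CPM against 12.6 CPM to at most 16 CPM in the other libraries, and its 8 pigmented cell genes to 542 against 22.2 to 65.8 CPM, with every one of these 27 genes highest in Het1. Erythroid genes summed to 37.1 CPM in KO1 and 24.5 CPM in KO2, against 298 CPM in KO3. WT held 340 CPM and the Het libraries 189 to 531 CPM, so KO3 lay within the Het range and KO1 and KO2 below it. Results of the members are given without Het1, KO1, KO2 or KO3 where that changes them.

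Across the 10 genes, 1 was differentially expressed between Het and KO, *Msi2*, which fell. The call required an edgeR adjusted p below 0.05 over all genes tested and a change of more than 20%. These are the limits the study set, which it applied with DESeq2 and not edgeR. Of the 20019 genes tested, 7.22% were differentially expressed, 4.01% higher and 3.21% lower in KO, so the share of the members was near that of all genes. The members had 6 positive and 4 negative log2 fold changes. Their median absolute log2 fold change was 0.09, against 0.16 over all genes, and the median of the signed values was 0.01 in the members and -0.0047 in all genes. In 5 members, *Msi1*, *Msi2*, *Mbnl1*, *Mbnl2* and *Celf3*, no KO library fell within the range of Het or the reverse, as in 36.3% of all genes. An unadjusted edgeR p below 0.05 was reached by 5 members, *Msi2*, *Mbnl1*, *Mbnl2*, *Celf3* and *Celf4*, and by 29.7% of all genes. Without Het1, *Msi2* and *Mbnl2* were the members differentially expressed.

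**Figure D1:**
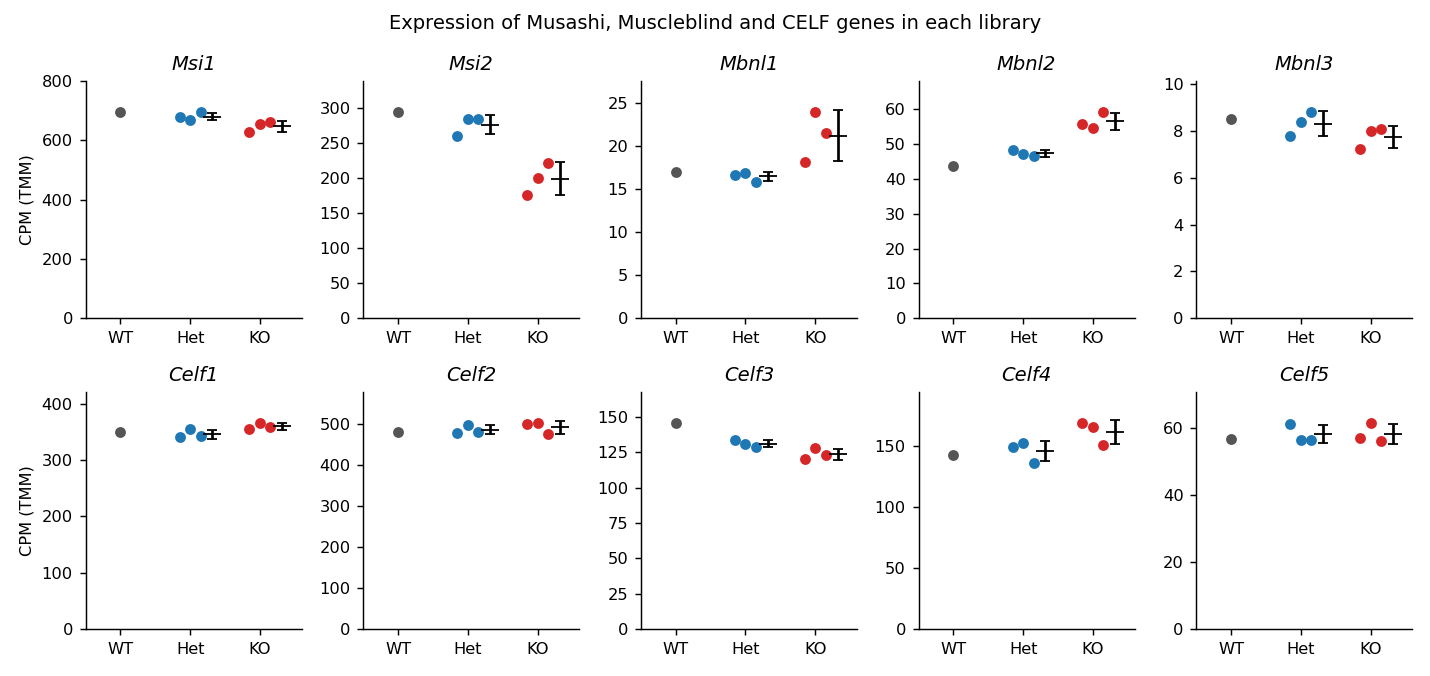
Expression of each gene (CPM after TMM normalization, axes from 0) in the single WT library, the 3 Het and the 3 KO libraries. Points are libraries, and the black marks beside them give mean ± SD (n = 3). *Msi2* lies lower in every KO library than in any Het library, and *Mbnl1* and *Mbnl2* lie higher. The 5 CELF genes differ less than these, with *Celf3* slightly lower in every KO library.

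Musashi genes. *Msi1*, a marker of neural progenitors, was the most strongly expressed member per length of exon. It was measured at 696 CPM in WT, 678, 669 and 695 CPM in Het, and 627, 655 and 662 CPM in KO. All KO libraries were below all Het libraries, but the gap was small, and at a log2 fold change of -0.07 (95% interval -0.16 to 0.017, edgeR adjusted p = 0.245) *Msi1* did not pass the test. The interval runs from 89.6% to 101.2% of the Het level, so a loss of the size seen for *Msi2* lies outside it.

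*Msi2*, its close relative, which is best known for regulating stem cells of the blood, was expressed at 294 CPM in WT. The Het libraries held 260, 284.0 and 284.1 CPM, and the KO libraries 176, 201 and 222 CPM. Every KO library was lower than every Het library, and WT was higher than both groups. The mean fell from 276 ± 13.6 to 199 ± 23.0 CPM (SD, n = 3 each), to 72.2% of Het (log2 fold change -0.47, SE 0.0853, 95% interval -0.67 to -0.27, edgeR adjusted p = 0.0214). The KO libraries varied more (coefficient of variation 11.5%) than the Het libraries (4.93%); the medians over 11321 genes with a mean of at least 5 CPM were 4.44% and 3.05%. The KO library with the least *Ptbp1*, KO2, was not the one with the least *Msi2*, which was KO1.

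The fall of *Msi2* kept its direction in all 15 alternative settings and its call in 11. Part of this was fixed in advance. Adjusted p alone and glmTreat repeat the fold change of the main fit, and the call could not be lost by adjusted p alone. With no overlap between the groups, leaving out 1 library could hardly turn the direction. Without Het1, the library with muscle and pigmented cell transcripts, the log2 fold change was -0.51 (edgeR adjusted p = 0.0312). The call was lost without Het2 (-0.45, edgeR adjusted p = 0.0828), without Het3 (-0.45, 0.0802) and without KO2 (-0.48, 0.0706). These fits also had fewer calls among all genes, 386, 496 and 612 in place of 1445. It was lost as well when the test was made against the fold limit itself, where the edgeR (glmTreat) adjusted p was 0.185.

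*Msi2* (ENSMUSG00000069769.13) spans chr11:88339382-88718513 on the minus strand of GRCm38, and *Msi1* (ENSMUSG00000054256.11) chr5:115429599-115455698 on the plus strand. Of the 100 tested genes nearest to *Msi2* on its chromosome (50 on each side), 14 were differentially expressed, 10 of them lower in KO. Of all genes tested, 7.22% were differentially expressed and 3.21% were lower in KO. Around *Msi1* there were 6, and around the other members from 1 (*Mbnl1*) to 7 (*Mbnl2*, of 76 genes). Whether the region of *Msi2* differs from others was not tested. Neither gene next to *Msi2* was differentially expressed.

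Divided by annotated exon length, *Msi2* made up 19.1% of Musashi transcripts in WT, 17.6%, 19.1% and 18.6% in Het, and 13.5%, 14.6% and 15.7% in KO. The genotypes were separate, with means of 18.4% ± 0.751 and 14.6% ± 1.11 (SD, n = 3 each). *Msi1* held the rest, so the Musashi pool of KO retina was both smaller, at 131 ± 5.28 against 144 ± 2.82 CPM per kb, and richer in *Msi1*. Whether the 2 genes differed in their response was not tested.

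**Figure D2:**
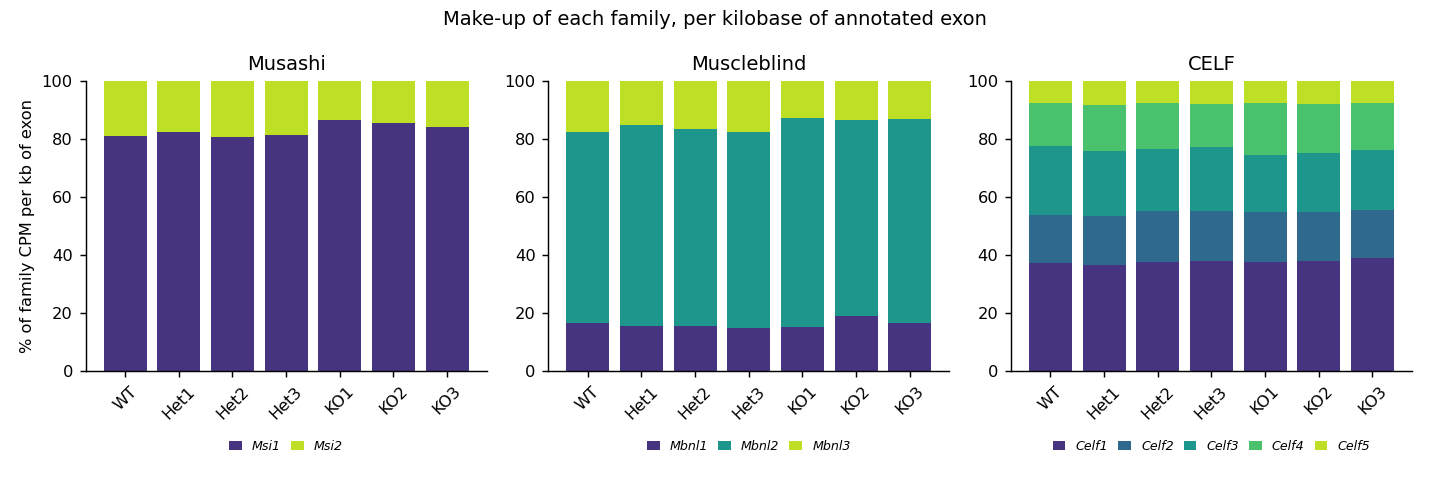
Share of each gene in the summed expression of its family (percent of CPM per kb of annotated exon, stacked to 100) in each of the 7 libraries. The *Msi2* share is 17.6% to 19.1% in WT and Het and 13.5% to 15.7% in KO, and the *Mbnl3* share is 15.3% to 17.6% in Het and 12.8% to 13.5% in KO.

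Muscleblind genes. This family was the least expressed of the 3, summing to 5.78 ± 0.0376 CPM per kb of exon in Het and 6.74 ± 0.283 in KO (SD, n = 3 each), with 5.53 in WT. *Mbnl2*, the main Muscleblind gene of the adult brain, was measured at 43.7 CPM in WT, 48.4, 47.1 and 46.5 CPM in Het, and 55.8, 54.6 and 59.2 CPM in KO. The 3 groups followed each other without overlap, WT lowest and KO highest. Its rise from Het to KO was even across libraries, with an SE of 0.0373 on a log2 fold change of 0.26 (95% interval 0.17 to 0.35), and the edgeR adjusted p was 0.0122. It passed the test on p, as 11.1% of all genes did, but the fold limit lay just above its fold change, so it was not counted as differentially expressed. Without Het1, KO1 or KO2 in turn, the log2 fold change was 0.27, 0.27 and 0.28, and *Mbnl2* was then differentially expressed (edgeR adjusted p = 0.0251, 0.0256 and 0.0313). Without Het2 or Het3 it did not pass the test on p either (0.25 and 0.25, edgeR adjusted p = 0.0612 and 0.0570).

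*Mbnl1*, which directs the fetal-to-adult splicing switch in muscle, was expressed at 17.0 CPM in WT and 16.7, 16.9 and 15.9 CPM in Het. In KO it reached 18.2, 24.0 and 21.6 CPM. All KO libraries were higher than the others, but KO1 was only slightly so, and the KO libraries spread over a 1.32-fold range against 1.07-fold in Het. The log2 fold change of 0.36 (SE 0.101, 95% interval 0.12 to 0.60) was past the fold limit with an edgeR adjusted p of 0.0654, so *Mbnl1* did not pass the test. It passed with DESeq2 (log2 fold change 0.36, adjusted p = 0.0035) and without KO1 (0.47, edgeR adjusted p = 0.0200).

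*Mbnl3*, the X-linked member, which is linked to delayed muscle differentiation, had the lowest counts, with 8.50 CPM in WT, 7.77, 8.37 and 8.82 CPM in Het and 7.21, 7.99 and 8.08 CPM in KO. The groups overlapped, and the log2 fold change was -0.10 (95% interval -0.29 to 0.092, edgeR adjusted p = 0.440). As a share of the family, *Mbnl3* made up 15.3% to 17.6% in Het and 12.8% to 13.5% in KO. The family sum by which it is divided was higher in KO, at 6.74 against 5.78 CPM per kb in Het. The lower share is therefore no result about *Mbnl3* alone. Per kb of exon, *Mbnl3* (0.951) and *Mbnl1* (0.882) could not be ordered in Het, where their libraries overlapped, while in KO *Mbnl1* (1.13) was above *Mbnl3* (0.888) in every library. This difference between genotypes rests on the length used, since with the longest transcript *Mbnl1* was above *Mbnl3* in every Het library too (2.92 and 1.79).

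**Figure D3:**
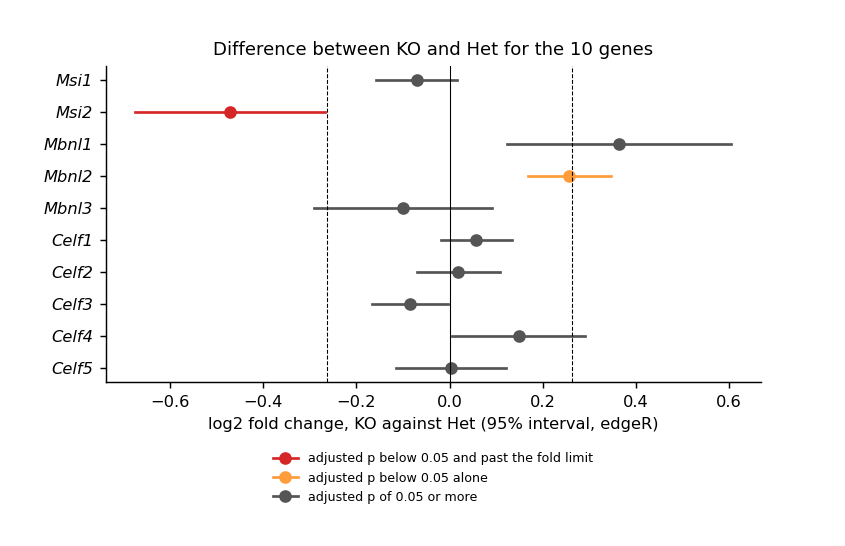
Log2 fold change of KO against Het for the 10 genes with 95% intervals (edgeR, 7 libraries in 1 fit). Dashed lines mark a change of 20% on the log2 scale on either side of 0. The *Msi2* interval, -0.674 to -0.267, ends just beyond the lower line. The test against that limit gave *Msi2* an edgeR (glmTreat) adjusted p of 0.185. *Mbnl2* at 0.26 sits just inside the upper line, and the intervals of *Celf3* and *Celf4* end close to 0.

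CELF genes. None of the 5 was differentially expressed, in the fit given or in any of the 15 alternatives, and their 95% intervals together ran from 89.1% to 122% of the Het level. *Celf1*, a broadly expressed regulator of splicing and mRNA decay, was measured at 351 CPM in WT, 341, 355 and 343 CPM in Het, and 355, 367 and 359 CPM in KO. The KO libraries were on the high side with an overlap at one end, and the log2 fold change was 0.057 (95% interval -0.019 to 0.13, edgeR adjusted p = 0.279). *Celf2*, which is enriched in neurons, showed 481 CPM in WT, 479, 499 and 482 CPM in Het, and 500, 504 and 475 CPM in KO. Here the KO libraries bracketed all the others, with a log2 fold change of 0.019 (95% interval -0.071 to 0.11, edgeR adjusted p = 0.769).

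*Celf3*, *Celf4* and *Celf5* are the neural members of the family. *Celf3* was expressed at 146 CPM in WT, 134, 131 and 129 CPM in Het, and 120, 128 and 123 CPM in KO. It descended from WT through Het to KO without overlap, by little at each step, and with a log2 fold change of -0.09 (95% interval -0.17 to -0.0040, edgeR adjusted p = 0.153) it did not pass the test. Its share of the family was 23.8% in WT, 21.4% to 22.2% in Het and 19.6% to 20.6% in KO.

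*Celf4*, which binds mRNAs of synaptic genes in excitatory neurons, went the other way, with 143 CPM in WT, 150, 152 and 136 CPM in Het and 169, 166 and 151 CPM in KO. KO3 fell among the Het libraries, and the log2 fold change of 0.15 (95% interval 0.0062 to 0.29, edgeR adjusted p = 0.155) did not pass the test. *Celf5* was level, at 56.7 CPM in WT, 58.2 ± 2.71 CPM in Het and 58.3 ± 2.97 CPM in KO (SD, n = 3 each). The log2 fold change of 0.0026 (95% interval -0.12 to 0.12, edgeR adjusted p = 0.977) turned sign in 4 of 15 alternatives. *Celf5* lies 1.59 Mb from *Ptbp1* on chromosome 10, and 3 of its 100 nearest tested genes were differentially expressed, against 7.22% of all genes tested. The omitted *Celf6*, named for completeness, was at 15.8 ± 0.500 CPM in Het and 14.9 ± 0.865 CPM in KO, with a log2 fold change of -0.08 (edgeR adjusted p = 0.395). The 5 members summed to 109 ± 2.14 CPM per kb of exon in Het and 112 ± 2.76 in KO.

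Ordered by CPM per kb of exon in Het, the levels were *Msi1* (117), *Celf1* (41.0), *Msi2* (26.5), *Celf3* (24.0), *Celf2* (18.8), *Celf4* (17.0), *Celf5* (8.72), *Mbnl2* (3.95), *Mbnl3* and *Mbnl1*. Apart from the last pair, neighbours in this order did not overlap in the 3 Het libraries. In KO *Msi2* (19.2) moved below *Celf3* (22.6) and could not be told from *Celf2* (19.1), nor *Celf2* from *Celf4* (18.9). The order depends on the length used. With the longest transcript in place of all annotated exons, *Celf2* came second after *Msi1* in both groups.

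The WT library lay above all Het libraries for *Msi1*, *Msi2*, *Mbnl1* and *Celf3*, below them for *Mbnl2* and within their range for the other 5. Over all genes WT was outside the Het range for 51.3% and above it for 25.8%. WT, Het and KO followed each other in separate steps in 4 members (*Msi1*, *Msi2* and *Celf3* downwards, *Mbnl2* upwards), as in 9.20% of all genes. With 1 WT library, none of this can be tested.

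**Figure D4:**
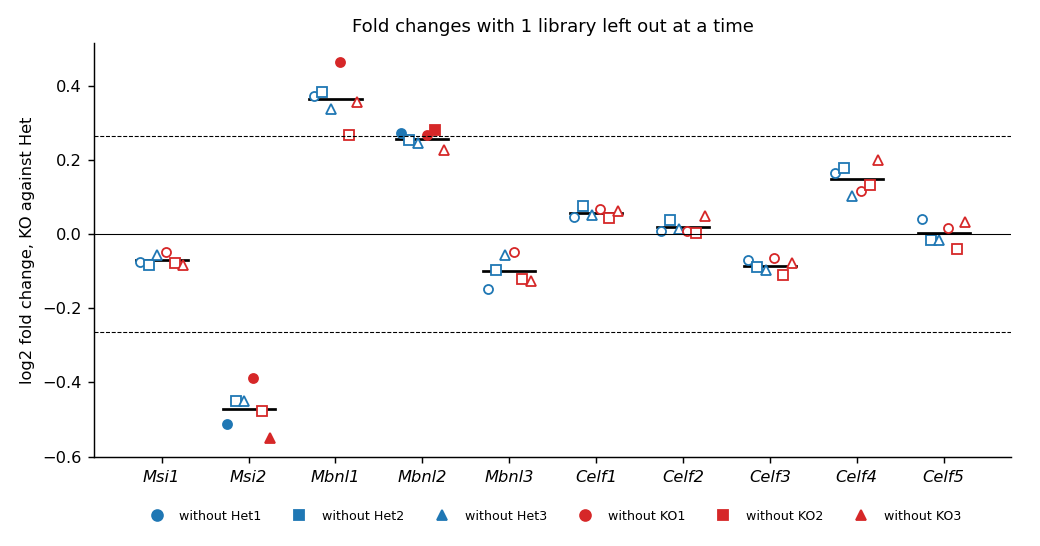
Log2 fold change of KO against Het for each gene with 1 library left out at a time (edgeR). Black bars give the value with all libraries, blue and red symbols the fits without a Het or a KO library, filled where the gene was differentially expressed, and dashed lines a change of 20% on the log2 scale. *Msi2* ranges from -0.55 to -0.39 and is filled in 3 of 6 fits, *Mbnl2* in 3 and *Mbnl1* in 1, and no CELF gene in any.

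Genes whose pattern over the 7 libraries was most like that of a member were sought among 10050 other genes with a mean of at least 10 CPM, by Pearson's r of log2(CPM + 1). The values are descriptions over 7 libraries that share their genotype and depth. For *Msi2* they were *Cers4*, a ceramide synthase (r = 0.998, log2 fold change -0.47), *Sfrp2*, a secreted Wnt modulator of progenitors (0.996, -1.05), and *Tgfbr1*, a TGF-beta receptor (0.994, -0.23), and the first 2 were differentially expressed. For *Mbnl2* they were *Reps2* (0.991, 0.38), *Zrsr2*, a splicing factor of minor introns (0.990, 0.080), and *Nfib*, a transcription factor of late progenitors (0.990, 0.47), of which *Reps2* and *Nfib* were differentially expressed. *Msi1* was closest to *Sybu* (0.989), *Tbc1d22a* (0.985) and *Ncoa6* (0.978), and *Celf1* to *Abl2* (0.978), *5830417I10Rik* (0.968) and *Cdyl2* (0.964), none of them differentially expressed.

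Among 9 genes known as Musashi targets, none was differentially expressed at the gene level, and their median log2 fold change was 0.11. They include *Numb*, whose translation Musashi represses, and genes such as *Ttc8*, *Cc2d2a*, *Cep290* and *Prom1* that carry photoreceptor exons. The most abundant were *Prom1*, a disc membrane protein (76.7 ± 0.525 CPM in Het and 73.8 ± 3.22 in KO, log2 fold change -0.06), and *Impdh1*, an enzyme of guanine nucleotide synthesis (72.1 ± 1.13 and 75.9 ± 3.32 CPM, 0.07). Gene-level counts do not show which exons were included, and splicing was not analysed here. *Slc17a7*, the vesicular glutamate transporter of photoreceptors, was named after its values were seen. It had 2.45 ± 0.540 CPM in Het and 5.04 ± 1.74 CPM in KO (log2 fold change 1.04, edgeR adjusted p = 0.0570), and without KO3 it was differentially expressed (1.22, edgeR adjusted p = 0.0399).

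Of 10 genes whose splicing is altered in myotonic dystrophy, through Muscleblind loss and CELF gain, none was differentially expressed, with a median log2 fold change of -0.14. *Mapt*, the most abundant, was at 776 ± 34.2 CPM in Het and 799 ± 58.8 CPM in KO (log2 fold change 0.04). *Insr* followed, with 140 ± 2.45 and 126 ± 3.01 CPM, and its log2 fold change of -0.15 had an edgeR adjusted p of 0.0278 but was below the fold limit. Of the 10, 6 were highest in Het1, beside the muscle genes, and without Het1 the median over the 9 still tested was 0.07, with *Tnnt2* (1.17, edgeR adjusted p = 0.0116) higher in KO. Without KO3, *Grin1* was (0.55, edgeR adjusted p = 0.0203). Both were named after their values were seen.

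Of 24 other splicing regulators, 1 rose and 4 fell. The riser was *Ptbp2*, the neural paralog of *Ptbp1*, with a log2 fold change of 0.30 (edgeR adjusted p = 0.0083). *Elavl4*, a neuronal Hu protein (-0.47), *Rbm24* (-0.46), *Nova2*, a neuronal regulator (-0.33), and *Khdrbs2* (-0.32) fell. *Khdrbs1*, the second most abundant after *Ptbp2*, was at 443 ± 12.9 CPM in Het and 420 ± 15.8 CPM in KO. Their median log2 fold change was -0.02. Without Het1, *Ptbp2* rose and *Elavl4* and *Khdrbs2* fell, and without Het2 or Het3 *Ptbp2* was the one gene called. Without KO1, *Ptbp2* and *Elavl4* were called. Without KO2, *Ptbp2* rose, and *Rbpms2* (-0.31), named after its values were seen, fell beside *Elavl4* and *Nova2*. Without KO3, *Ptbp2* rose and *Elavl4*, *Nova2* and *Khdrbs2* fell. *Rbm24* was called in none of these 6 fits.

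Markers of retinal cell types differed between the same libraries. In bulk tissue, fewer cells of a type and less RNA per cell cannot be told apart. Of 11 tested photoreceptor genes 7 rose and none fell, among them *Rcvrn* (3.52), *Nr2e3* (3.34), *Opn1sw* (1.99) and *Nrl* (1.41 on the log2 scale). These 4 had low levels. *Rcvrn* was near the floor, at means of 0.0542 CPM in Het and 0.631 CPM in KO. *Nr2e3* was at 1.33 and 13.4 CPM, *Opn1sw* at 6.55 and 26.0 CPM and *Nrl* at 9.26 and 24.7 CPM. The summed level of the 11 genes was 763 to 832 CPM in Het and 957 to 1042 CPM in KO. The most abundant were *Neurod1* (log2 fold change 0.32, higher) and *Otx2* (0.12, not differentially expressed). Without Het2 the number that rose was 2, and without Het3 it was 3.

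Of 12 ganglion cell genes 1 rose (*Thy1*, 0.99) and 2 fell (*Isl1*, -0.68, and *Gap43*, -0.42), and the sum was 3438 to 3585 CPM in Het and 2890 to 3290 CPM in KO. *Stmn2*, the next most abundant after *Gap43*, had a log2 fold change of -0.19. Without Het2 or Het3 *Isl1* was the one ganglion cell gene called, and without KO2 *Ebf3* (-0.39) and *Pou4f2* (-0.38), named after their values were seen, fell beside *Isl1* and *Gap43*, while *Thy1* was not called. Of 11 amacrine and horizontal cell genes 3 rose (*Gad1*, 1.45, *Tfap2b*, 0.54, and *Tfap2a*, 0.46), with sums of 551 to 585 and 681 to 727 CPM. With 1 library left out, *Gad1* and *Tfap2b* kept their calls in every fit, and *Tfap2a* only without Het1 or KO3. *Prox1*, abundant in that list, had a log2 fold change of 0.12. Of 14 progenitor genes 2 rose (*Hes5*, 0.32, and *Notch1*, 0.29), with sums of 7773 to 7924 and 7990 to 8374 CPM, while *Ccnd1* (0.10) and *Top2a* (0.06) were not differentially expressed. *Hes5* was called in none of the 6 fits with 1 library left out, and *Notch1* not without Het2 or KO2. The part of these cell types in the levels of *Msi2* and the Muscleblind genes was not tested.

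**Figure D5:**
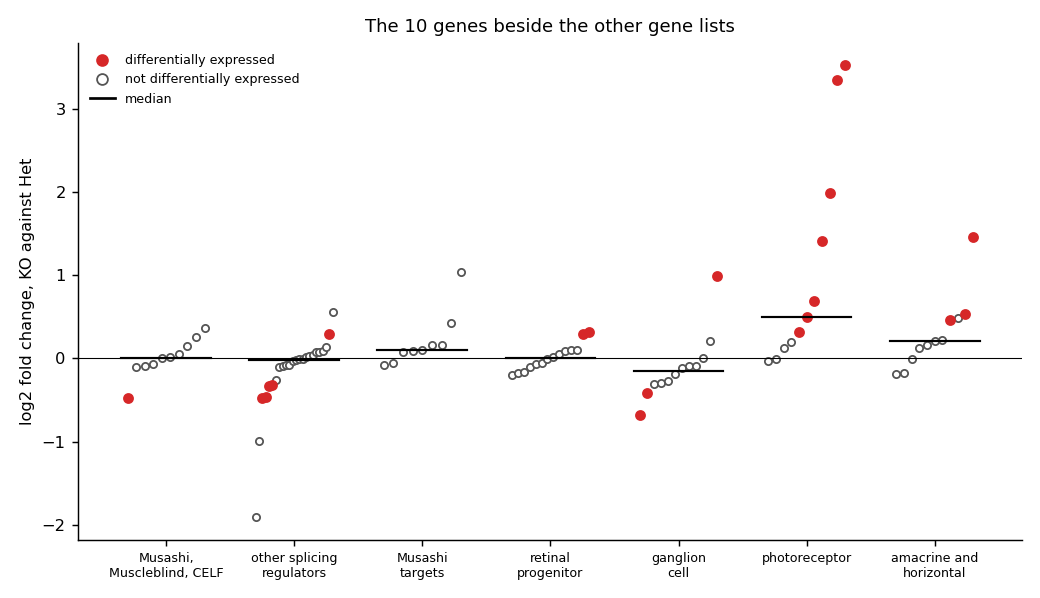
Log2 fold change of KO against Het for the 10 genes and for 6 other gene lists. Each point is a gene, red where it was differentially expressed, and the bar is the list's median, from -0.15 in ganglion cell genes to 0.49 in photoreceptor genes and 0.01 in the 10 genes.

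The other lists were written for cells outside the neural retina. None of the 19 muscle genes (*Myh3* and *Acta1* the most abundant) or 8 pigmented cell genes (*Pmel* and *Dct*) was differentially expressed, with median log2 fold changes of -3.70 and -2.52. Without Het1 the medians were 0.06 and -0.43, with *Tnni1* (1.35) higher in KO, and without KO3 *Mitf* (-1.87) was lower, both named after their values were seen. Of the 9 lens genes, led by *Cryaa* (-2.41) and *Cryba1* (0.02), 1 fell (*Foxe3*), with sums of 26.9 to 89.1 CPM in Het and 3.02 to 58.1 CPM in KO and a median of -0.75. With 1 library left out, *Foxe3* kept its call only without Het1, and without KO3 *Bfsp2*, *Cryaa* and *Crybb3* fell instead, the first and last named after their values were seen.

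The 8 erythroid genes, led by *Hbb-bs* (-1.51) and *Hba-a1* (-0.97), summed to 189 to 531 CPM in Het and 24.5 to 298 CPM in KO, with a median log2 fold change of -1.61 and no call, but all 8 were lower in KO without KO3. The 8 endothelial and pericyte genes summed to 415 to 438 and 503 to 601 CPM, nearly all of it *Kdr*, which averaged 423 CPM and rose (0.44), while *Pdgfrb* (-0.41) fell. Whether the *Kdr* reads came from endothelial cells was not tested. The sum thus follows *Kdr*, while 3 of the 8 log2 fold changes in the list were positive. The median was -0.91, and without KO3 *Cdh5*, *Pecam1*, *Rgs5* and *Tek*, named after their values were seen, fell as well. Without Het2 or Het3 no gene of this list was called, and without KO1 or KO2 *Kdr* alone was. Of the 8 microglial genes *Cx3cr1* (0.71) rose and *Csf1r* (0.50) was not differentially expressed, with sums of 49.5 to 70.0 and 71.6 to 96.5 CPM and a median of 0.56. With 1 library left out, *Cx3cr1* kept its call only without KO1, and without Het3 *C1qa* (0.82), named after its values were seen, was called. Without KO3, *Msi2* had a log2 fold change of -0.55 (edgeR adjusted p = 0.0140) and *Mbnl2* one of 0.23 (edgeR adjusted p = 0.0153). The part of these cells in the members' levels was not tested.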

How the data were processed

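Bulk RNA-seq was analysed in 7 pooled E16 retina libraries (1 WT, 3 Het, 3 KO), grouped by their titles. The authors aligned reads to GRCm38 (GENCODE M10) with STAR within rMATS-turbo and deposited raw whole-number counts from featureCounts for each gene. Tool versions, the strand setting and how multi-mapping reads were handled are not given in the sources used here. The methods name a column kit for RNA, the labels TRIzol. The table has 0 further value columns, and genes were followed by identifier since 121 rows repeat a symbol.

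Counts were fitted in edgeR 4.0.16 (R 4.3.3) with filterByExpr, TMM (factors 0.988 to 1.03) and the quasi-likelihood test, all 7 libraries in 1 fit with a mean per genotype (biological coefficient of variation 21.5%). Benjamini-Hochberg adjustment ran over 20019 genes. Standard errors are the log2 fold change over the square root of F. On simulated counts the edgeR script was tested before use with known changes larger than those of the members. Recovery of changes of the members' size was not examined. CPM were divided by the union of exons or by the longest transcript of a later GENCODE release (M21), also the source of the sequences and coordinates.

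The members and the 13 hand-written lists (155 entries, *Rbpms* and *Tnnt3* in 2 each) were chosen with earlier results of these data known. Genes named were the members, *Ptbp1*, from each list up to 4 called genes and the 2 most abundant, and for *Msi1*, *Msi2*, *Mbnl2* and *Celf1* the 3 genes most alike. *Celf6*, the antisense genes and *Numb*, *Ttc8*, *Cc2d2a* and *Cep290* were named outside that rule. Alternatives were DESeq2 1.42.0, upper-quartile or RLE factors, a filter of 10 counts in each library or none, Het and KO alone, the replicate number as a block, adjusted p alone, glmTreat, and each Het and KO library left out. With 3 libraries against 3, a permutation test could not go below p = 0.10, and none was run. Replicates differed by 14.0 to 53.2 times the counting variance. The result for 1 progenitor gene is not reported here.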

Additional observations from a re-analysis of the deposited data

How the results depend on the processing

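Of 150 values of the members' log2 fold changes under alternatives, 146 kept their direction and 4 turned, all of *Celf5*: -0.0013 with DESeq2, -0.017 without Het2, -0.016 without Het3 and -0.040 without KO2 (left-out fits -0.040 to 0.042). Adjusted p alone and glmTreat repeat the fold changes of the main fit, so no direction could turn in them. The number of members differentially expressed, 1, was 2 with DESeq2 (*Msi2* and *Mbnl1*), 2 by adjusted p alone (*Msi2* and *Mbnl2*) and 0 with glmTreat, and ranged from 0 to 3 with 1 library left out. It was 0 without Het2 or Het3, 2 without Het1, 3 without KO1 and, without KO2, 1 (*Mbnl2*). Over all genes the count, 1445, was 2070 with DESeq2, the tool of the study, 2221 by adjusted p alone and 217 with glmTreat. It ranged from 386 to 1674 with 1 library left out. The cause was not tested.

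The same-numbered Het and KO libraries had correlations of -0.12, 0.26 and 0.0188 between their deviations from the group means. Differently numbered libraries had correlations from -0.35 to 0.22. With 3 libraries in each group, these values cannot decide whether the replicate number pairs the samples. With the number as a replicate block, 1268 genes and 1 member, *Msi2*, were differentially expressed. Another normalization moved the median of all genes by less than 0.01 on the log2 scale. Of 70 alternative values of the members' family shares, 69 kept their direction, and the difference in the *Celf5* share, -0.16 percentage points, was 0.039 without Het1. Members had at least 956 reads per library.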
